A study of Mus musculus with 6 samples.

Results

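The genes described here regulate the mitochondrial route of apoptosis: the pore formers Bax and Bak1, the survival proteins Bcl2, Bcl2l1 and Mcl1, the BH3-only activator Bcl2l11, the apoptosome parts Casp9 and Apaf1, and the BAX adaptor Moap1. They are 9 of 52143 genes in the deposited gene table, and 6 of them passed the low-count filter that left 12815 genes for testing. Of the 9, 8 were chosen by name as core genes of the pathway, with earlier results of these data known, which limits their p-values. Moap1 was added because its level was lower in the libraries labelled Jun knockdown, so its values are given as a description and carry no test. No member had a copy on a patch sequence of the genome.

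The study asked what changes in mouse rod photoreceptors when an shRNA against the transcription factor Jun is expressed in them. In 3 libraries the rods carried the Jun shRNA vector, and in 3 control libraries they carried the pLKO.1-Scrambled vector, each at 2.5 µg/µl in 0.4 µl. Both groups also received an Nrlp-EGFP vector at 1.5 µg/µl, which marks rods because the Nrl promoter is active in them. Plasmids were electroporated into newborn retinas on postnatal day 0, EGFP-positive cells were sorted on postnatal day 10, and cDNA came from a low-input SMART-seq kit. The labels name a single shRNA clone against Jun and give neither strain, sex, nor the animals or litters behind a library, so each p-value reflects only the spread between libraries, which may be technical.

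In a cell that receives a death signal, BH3-only proteins bind the survival members of the BCL2 family and release or activate BAX and BAK. These then oligomerise in the outer mitochondrial membrane, cytochrome c leaves the intermembrane space, and APAF1 assembles into the apoptosome that activates caspase-9. In the rodent retina, developmental cell death removes neurons during the first postnatal weeks, and photoreceptors become less responsive to intrinsic death signals as they mature, with lower levels of several of these proteins. Jun, acting with partner proteins at AP-1 and related DNA elements, is known in rodent sympathetic neurons as a regulator of this route after loss of growth factor.

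Several properties of the libraries bear on every value below. Jun itself did not stand lower in the group labelled as its knockdown, at 1.84, 17.6 and 19.3 CPM (counts scaled to library size with TMM factors), against 6.47, 5.85 and 7.16 CPM in control libraries (log2 fold change 0.99, SE 1.44, adjusted p = 0.764 by edgeR's quasi-likelihood test with Benjamini-Hochberg adjustment). The first Jun knockdown library was below all controls for Jun and the other two were above them. Library totals lay between 13211300 and 13998400 estimated counts in the Jun knockdown libraries and between 32150100 and 105801000 in control libraries, so depth and group cannot be told apart. The summed CPM of 12 rod markers ranged from 27429 to 44751 in Jun knockdown libraries, against 111514 to 128321 in control libraries, and 8 of the 12 were called lower. Another 2, Gngt1 and Cnga1, had log2 fold changes above 0 and were not called. Gngt1 was the largest part of the Jun knockdown sums, at 31308, 18331 and 33263 CPM, against 20419, 6894 and 13854 CPM in control libraries. Summed microglia markers ranged from 14.9 to 47.7 CPM in Jun knockdown libraries, against 868 to 1242 CPM in control libraries. Summed Müller glia markers ranged from 278 to 370 CPM in Jun knockdown libraries, against 1805 to 2162 CPM in control libraries. Of the 10 tested, 0 were called and 3, Slc1a3, Aqp4 and Sox9, had log2 fold changes above 0. Summed vascular and blood markers ranged from 20.5 to 66.3 CPM in Jun knockdown libraries, against 195 to 349 CPM in control libraries. Of the 7 tested, 3 were called lower and 1, Kdr, had a log2 fold change above 0. Summed cone markers ranged from 2527 to 3317 CPM in Jun knockdown libraries, against 3562 to 7028 CPM in control libraries. Of the 8 tested, 1 was called lower and 1 had a log2 fold change above 0. The rod, microglia, Müller glia, vascular and blood, and cone sums were all lower in the Jun knockdown libraries without overlap. The bipolar cell sum was higher without overlap, from 948 to 1543 CPM in Jun knockdown libraries, against 770 to 922 CPM in control libraries, with 1 of 9 markers called lower and 1, Prkca, called higher. The amacrine and ganglion cell sums overlapped between the groups. The part of these shifts in any member's value was not tested, and in bulk RNA fewer cells of a type and less RNA per cell cannot be told apart.

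No member chosen by name passed the test, and several were detected unevenly from library to library. Uneven levels were common among all tested genes too. The median share of a group's CPM in its highest library was 59.8% in the Jun knockdown group and 57.2% in the control group. For the 5 tested members chosen by name these medians were 79.9% in the Jun knockdown group and 62.5% in the control group. Among the 8, 5 were tested, and edgeR called 0 of them at an adjusted p of 0.05, where 1.67% of all tested genes were called. At an unadjusted p of 0.05 the edgeR count was also 0, limma-voom called 0 with 2 at that unadjusted level, and DESeq2 called 1, Bcl2l1, with 2 at that level and an adjusted p for 5 of the 8. Over all genes, limma-voom called 3.45% and DESeq2 12.1% of those with an adjusted p. The groups did not overlap for 2 of the 5 tested members, Bax and Bcl2l1, both lower in the Jun knockdown libraries, and for 28.3% of all tested genes. Only Mcl1 reached 5 CPM in all 3 Jun knockdown libraries, whereas Bax, Bcl2l1, Mcl1 and Moap1 did so in all 3 control libraries.

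**Figure D1:**
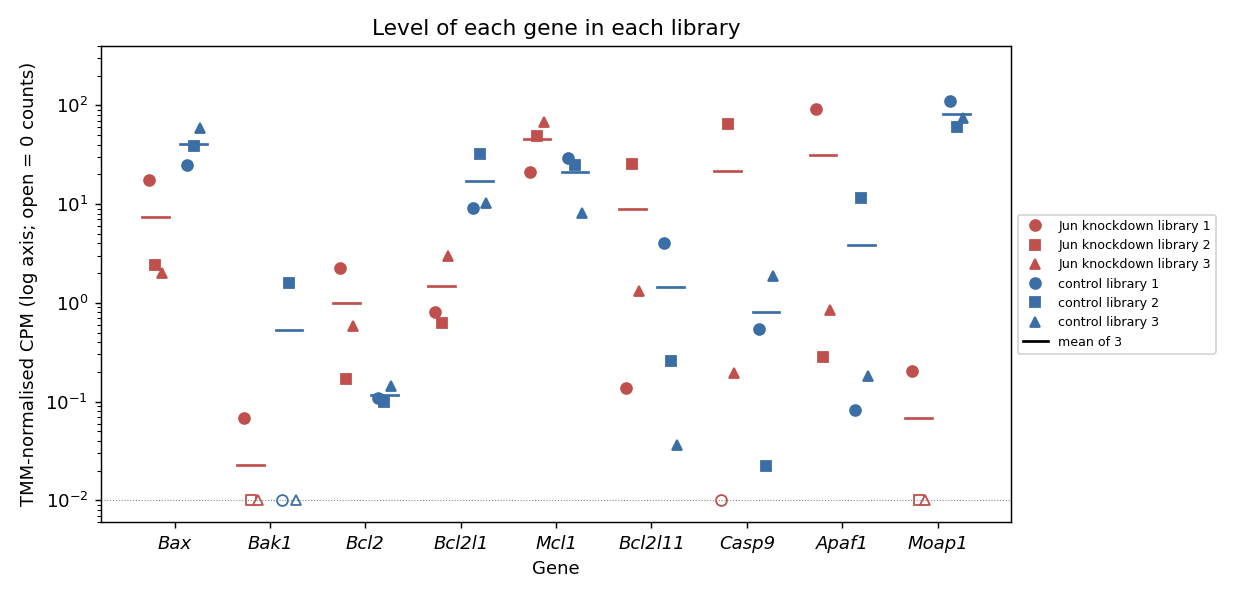
Level of each member in every library, as TMM-normalised CPM on a log axis with 0 counts drawn as open symbols at the bottom, Jun knockdown libraries left of control libraries and a bar at each group's mean. Moap1 lies at 0.204 CPM or below in the Jun knockdown libraries and at 60.1 CPM or above in control libraries, while Apaf1, Bcl2l11 and Casp9 each have a single high Jun knockdown library.

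Bax encodes the pore former that moves from cytosol to mitochondria during apoptosis, and lies on the minus strand of chromosome 7, from 45461697 to 45466898 (GRCm38). It was measured at 17.7, 2.43 and 2.03 CPM in Jun knockdown libraries, against 24.9, 39.2 and 59.1 CPM in control libraries, from 260, 43 and 31 counts in Jun knockdown libraries and 908, 3531 and 1641 counts in control libraries. Every Jun knockdown library was below every control library, and the first of them lay much nearer to the control range than the other two. The means were 7.38 ± 8.93 CPM in Jun knockdown libraries and 41.1 ± 17.2 CPM in control libraries (SD, n = 3 each), and the log2 fold change of -2.48 (SE 1.37) did not pass edgeR's test (adjusted p = 0.394). Per base of transcript length, on a scale like TPM, the groups met at 31.1 in the first Jun knockdown library and 31.1 in the first control library. Bax-201, with a coding region of 576 bases, held 99.0%, 95.1% and 88.0% of Bax transcript counts in Jun knockdown libraries and 98.4%, 87.5% and 94.1% in control libraries, so its share overlapped between the groups. Bax-205 has a coding region of 513 bases. It held 0% in each Jun knockdown library, against 0.299%, 10.1% and 5.69% in control libraries. These control shares rest on 2.52, 342 and 92.6 estimated counts. For the Bax-205 share the exact permutation test gave 0.1, two-sided, its smallest possible p.

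Bak1, the second pore former, lies on the minus strand of chromosome 17, from 27019810 to 27029009. It had 1, 0 and 0 counts in Jun knockdown libraries, against 0, 144 and 0 counts in control libraries. The gene was therefore detected at more than 1 count in a single library, the second control, at 1.60 CPM, and was not tested by edgeR (exact permutation test on log2(CPM + 1), two-sided, p = 1). All 148 transcript counts in that library were assigned to Bak1-201, a form annotated as a target of nonsense-mediated decay, and none to the coding form Bak1-202. Of the 1974 bases of Bak1-201, 1954 also lie in exons of Bak1-202, so the split between them is an estimate. The antisense gene Ggnbp1 shares 437 exon bases with Bak1, and with no strand marking stated, reads there cannot be assigned to one or the other. In the other 5 libraries, Bak1 was not detected above a floor of 3 counts.

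Mcl1, a short-lived survival protein that binds BAK and BIM, was the most evenly detected member. It lies on the plus strand of chromosome 3, from 95658788 to 95663176, and was measured at 21.3, 48.6 and 68.6 CPM in Jun knockdown libraries, against 29.6, 25.2 and 8.10 CPM in control libraries. The second and the third Jun knockdown library were above all controls and the first was inside the control range. Means were 46.2 ± 23.8 CPM in Jun knockdown libraries and 20.9 ± 11.3 CPM in control libraries (SD, n = 3 each), and the log2 fold change of 1.14 (SE 1.10) did not pass edgeR's test (adjusted p = 0.632). All Mcl1 transcript counts, in all 6 libraries, were assigned to Mcl1-201, the form with a coding region of 993 bases. The other annotated Mcl1 transcript received no count.

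Bcl2l1 encodes BCL-XL, the survival protein that dominates in many mature neurons, and lies on the minus strand of chromosome 2, from 152780668 to 152831728. It was measured at 0.817, 0.620 and 3.01 CPM in Jun knockdown libraries, against 9.05, 32.3 and 10.3 CPM in control libraries. Counts were 12, 11 and 46 in Jun knockdown libraries, against 330, 2908 and 286 in control libraries. The groups did not overlap, and the second control stood above the other controls. The log2 fold change of -3.54 (SE 1.59) did not pass edgeR's test (adjusted p = 0.305), while DESeq2 gave -3.49 with an adjusted p of 0.0309. Over all 16 alternatives the adjusted p ran from 0.0309 to 0.496, and DESeq2 was the only one under 0.05.

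The transcript counts of Bcl2l1 were assigned mainly to Bcl2l1-203 in 2 of 3 Jun knockdown libraries and mainly to Bcl2l1-201 in all control libraries, on only 8, 10 and 32 transcript counts in the Jun knockdown libraries, and the difference did not pass a test. Bcl2l1-201, with a coding region of 699 bases, held 4.51, 0.27 and 2.00 estimated counts in Jun knockdown libraries, against 377, 3411 and 345 in control libraries. That was 56.4%, 2.74% and 6.25% of Bcl2l1 transcript counts in Jun knockdown libraries, against 92.7%, 97.9% and 100% in control libraries. Every share was lower in the Jun knockdown libraries, and the exact permutation test gave its smallest possible p for 3 against 3, 0.1, two-sided. Bcl2l1-202 also has a coding region of 699 bases. It held 0%, 39.9% and 0% in Jun knockdown libraries, against 7.29%, 2.11% and 0% in control libraries. The 39.9% rests on 3.99 estimated counts. Bcl2l1-203, whose annotated coding region is incomplete, held 2.31, 5.74 and 30.0 counts in Jun knockdown libraries and 0 in each control library. In the third Jun knockdown library its share of 93.8% had a Wilson 95% interval of 79.9% to 98.3%, which covers counting error only. Of its 1403 bases, 676 also lie in exons of Bcl2l1-201. In the test across 20706 transcripts, Bcl2l1-201 had a log2 fold change of -7.32 (SE 2.25, edgeR adjusted p = 0.14). Of the 3 tested transcripts of members chosen by name, 0 passed that test and 1 had an unadjusted p under 0.05, where 0.662% of all tested transcripts passed.

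**Figure D2:**
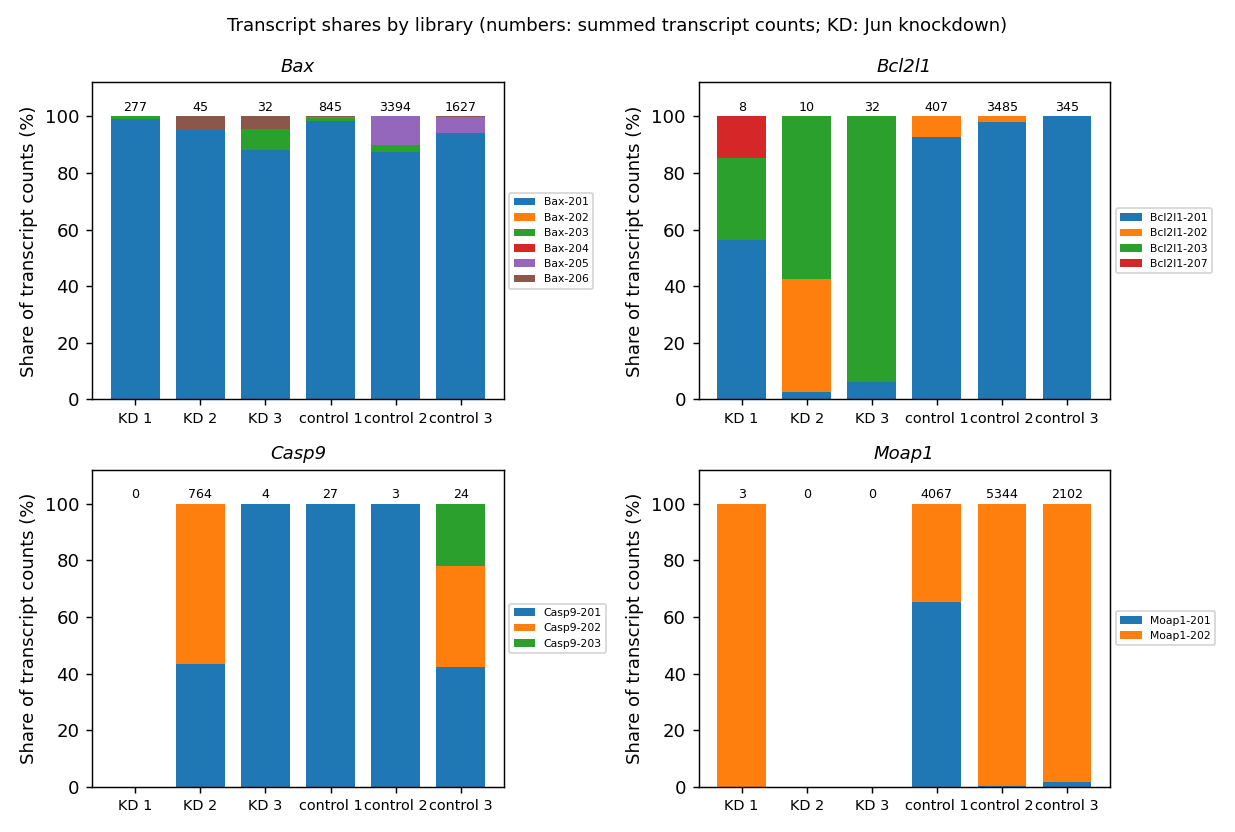
Share of a gene's transcript counts, in percent, held by each transcript of Bax, Bcl2l1, Casp9 and Moap1 in each library, with the summed transcript counts above the bars and Jun knockdown libraries left of control libraries. Bcl2l1-201 holds 2.74% to 56.4% in Jun knockdown libraries and 92.7% to 100% in control libraries, and Moap1-201 holds 65.4% in 1 control library and under 2% in the others.

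Bcl2, the founding survival gene of the family, lies on the minus strand of chromosome 1, from 106538178 to 106714274. It was measured at 2.25, 0.169 and 0.589 CPM in Jun knockdown libraries, against 0.110, 0.0999 and 0.144 CPM in control libraries. These rest on 33, 3 and 9 counts in Jun knockdown libraries, against 4, 9 and 4 in control libraries. All Jun knockdown libraries were above all control libraries, but the second was close to the third control, and Bcl2 was below the low-count filter. The exact permutation test on log2(CPM + 1) gave 0.1, two-sided, its smallest possible p, and without the filter edgeR gave a log2 fold change of 2.96 (SE 2.26, adjusted p = 0.510). Bcl2-201, with a coding region of 708 bases, received 4.50%, 32.0% and 28.4% of Bcl2 transcript counts in Jun knockdown libraries and 0% in each control library, where only 3 to 6 transcript counts were present. Its shares in the Jun knockdown libraries rest on only 1.19, 1 and 2.31 estimated counts. The form Bcl2-202 held the rest.

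Bcl2l11 encodes BIM, the BH3-only protein that binds all survival members and activates BAX. It lies on the plus strand of chromosome 2, from 128126038 to 128162547, and was measured at 0.136, 25.6 and 1.31 CPM in Jun knockdown libraries, against 4.03, 0.255 and 0.0360 CPM in control libraries. The second Jun knockdown library held 94.6% of its group's CPM, and the first control held 93.3% of the control CPM. The log2 fold change of 2.64 (SE 2.25) did not pass edgeR's test (adjusted p = 0.585), and without the second Jun knockdown library it was -0.999. Bcl2l11-205, with a coding region of 588 bases, held 99.1% of the transcript counts in the Jun knockdown group and 91.1% in the control group. Those pooled shares rest mainly on the second Jun knockdown library and the first control. Bcl2l11-205 held 0% in the third Jun knockdown library and 0% in the second control, where Bcl2l11-203 held 94.6%.

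Apaf1, the scaffold of the apoptosome, lies on the minus strand of chromosome 10, from 90989311 to 91082770. It was measured at 92.4, 0.282 and 0.850 CPM in Jun knockdown libraries, against 0.0823, 11.4 and 0.180 CPM in control libraries. A single library again held nearly all of the signal, with 98.8% of the group's CPM in the first Jun knockdown library and 97.8% in the second control. The log2 fold change of 3.00 (SE 2.49) did not pass edgeR's test (adjusted p = 0.576), and without the first Jun knockdown library it was -2.81. In the 2 libraries with high Apaf1 the coding form Apaf1-202 held similar shares, 76.4% in the Jun knockdown library and 82.1% in the control library. The short noncoding Apaf1-204 held 19.1% in the Jun knockdown library and 17.6% in the control library. All 511 bases of Apaf1-204 also lie in exons of Apaf1-202, so the split between them is an estimate.

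Casp9, the initiator caspase that the apoptosome activates, lies on the plus strand of chromosome 4, from 141793612 to 141815976. It had 0, 1142 and 3 counts in Jun knockdown libraries, against 20, 2 and 52 counts in control libraries, or 0, 64.4 and 0.196 CPM in Jun knockdown libraries, against 0.549, 0.0222 and 1.87 CPM in control libraries. The second Jun knockdown library held 99.7% of its group's CPM, the groups overlapped, and Casp9 was below the low-count filter (exact permutation test on log2(CPM + 1), two-sided, p = 0.9). Casp9-202, a form with a coding region of 1215 bases in place of the 1362 bases of Casp9-201, held 56.7% of Casp9 transcript counts in that library and 35.5% in the third control. All 1498 bases of Casp9-202 also lie within the 3897 exon bases of Casp9-201, so the split between them is an estimate.

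For Bcl2l11, Apaf1 and Casp9 a single library thus held most of the CPM of the Jun knockdown group, the second for Bcl2l11 and Casp9 and the first for Apaf1. In the control group it was the first for Bcl2l11, the second for Apaf1 and the third for Casp9. Among the 5 tested members chosen by name, 2, Bcl2l11 and Apaf1, had at least 90% of the CPM of the Jun knockdown group in 1 library, where 13.2% of 12795 tested genes with a count in that group did. The same 2 of 5 passed that mark in the control group, where 11.5% of 12788 genes did. Of the members outside that comparison, Casp9, Bak1 and Moap1 passed the mark in the Jun knockdown group and Bak1 in the control group. In the Jun knockdown group Bak1 rests on 1 count and Moap1 on 3, all in 1 library. These counts describe 5 genes, and nothing is read from them about the set.

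**Figure D3:**
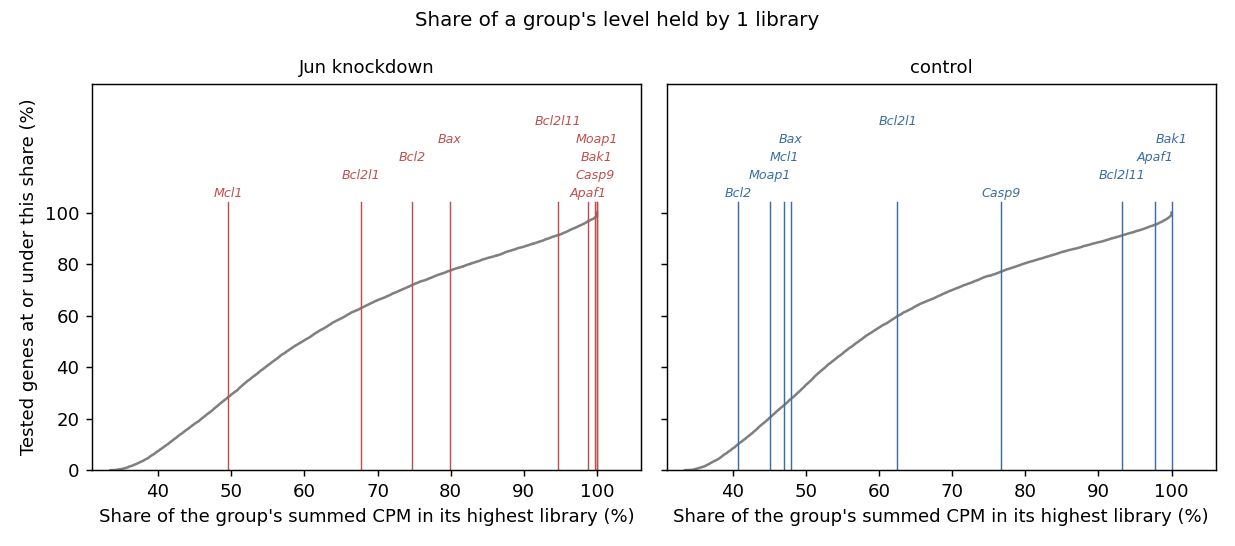
Share of a group's summed CPM held by its highest library, in percent, with a line for each member in Jun knockdown libraries, left, and control libraries, right, over a grey curve of the percentage of all tested genes at or under each share. Bcl2l11 lies at 94.6% in Jun knockdown libraries and 93.3% in control libraries, and Apaf1 at 98.8% in Jun knockdown libraries and 97.8% in control libraries.

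Moap1 encodes a partner of BAX that links death receptor signals and the tumour suppressor RASSF1A to BAX activation, and belongs to the PNMA family. It lies on the minus strand of chromosome 12, from 102742230 to 102743661, and was measured at 0.204, 0 and 0 CPM in Jun knockdown libraries, against 111, 60.1 and 75.2 CPM in control libraries. These are 3, 0 and 0 counts in Jun knockdown libraries, against 4056, 5414 and 2088 counts in control libraries. Each control library was far above each Jun knockdown library, which is the contrast that chose the gene. The fitted log2 fold change of -10.20 depends on how near-zero counts are handled.

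The 1165 bases shared with the read-through gene Gm20604 limit what the Moap1 values measure. Gm20604 is annotated on the same strand, and its transcript contains those 1165 of the 1328 exon bases of Moap1. It was measured at 39.1, 26.5 and 5.50 CPM in Jun knockdown libraries, against 197, 55.8 and 91.5 CPM in control libraries (log2 fold change -2.28, SE 1.00, edgeR adjusted p = 0.292). Summed with Moap1, the locus stood at 39.3, 26.5 and 5.50 CPM in Jun knockdown libraries, against 308, 116 and 167 CPM in control libraries. The summed groups still did not overlap, with means of 23.7 ± 17.1 CPM in Jun knockdown libraries and 197 ± 99.8 CPM in control libraries (SD, n = 3 each). On the sum the fitted log2 fold change was -3.05, an 8.30-fold lower mean, given as a description and computed after the values were seen. Moap1 made up 0.287% of the sum in Jun knockdown libraries and 41.7% in control libraries.

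**Figure D4:**
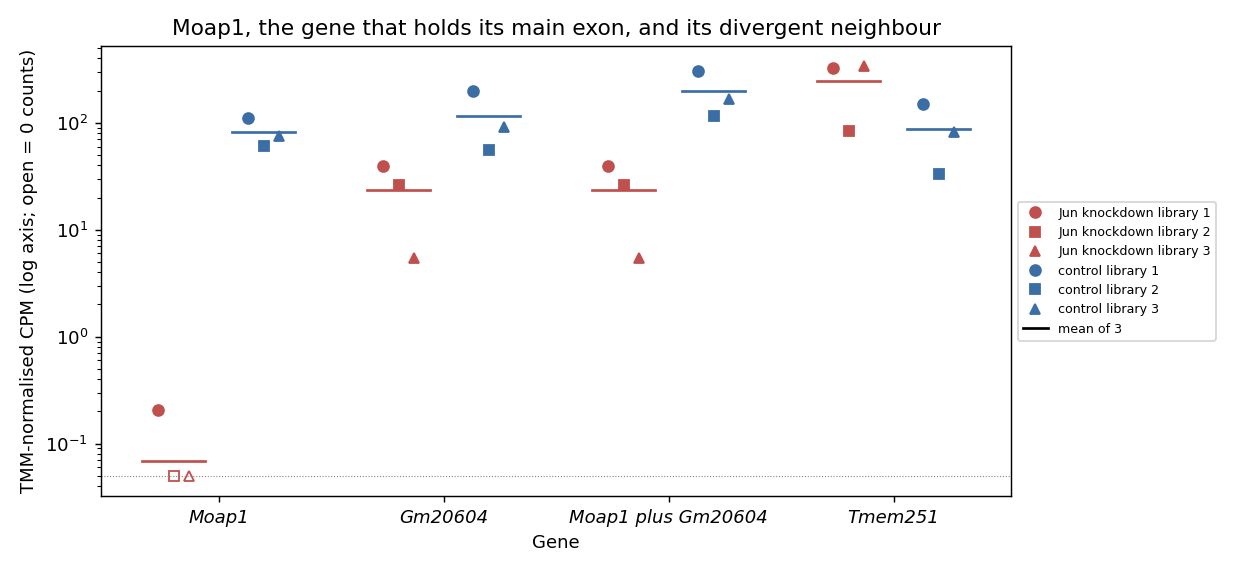
Levels at the Moap1 locus in each library, as TMM-normalised CPM on a log axis with 0 counts drawn as open symbols and a bar at each mean, for Moap1, the read-through gene Gm20604 that contains most of its exon bases, their sum, and the divergent neighbour Tmem251, with Jun knockdown libraries left of control libraries. The sum lies between 5.50 and 39.3 CPM in Jun knockdown libraries and between 116 and 308 CPM in control libraries, while Moap1 alone lies at or near 0 in Jun knockdown libraries.

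The 2 Moap1 transcripts each have a coding region of 1056 bases and share 1268 exon bases. Moap1-201 held 65.4% of Moap1 transcript counts in the first control, against 0.279% in the second and 1.73% in the third, with Moap1-202 holding the rest, so the control libraries differed in the form assigned. The 3 genes whose log2 CPM over the 6 libraries correlated best with Moap1 were Krt18, Dnaic2 and Prpf19, with Pearson's r rounded to 1.00 for each, a description over 6 libraries in 2 groups. In all, 377 of 11161 genes compared reached an r of 0.95. Krt18, a keratin on the list of pigment epithelium markers, was measured at 0.340, 0.169 and 0.327 CPM in Jun knockdown libraries, against 206, 124 and 143 CPM in control libraries. The summed pigment epithelium markers ranged from 2.25 to 123 CPM in Jun knockdown libraries, against 470 to 690 CPM in control libraries, a sum carried mainly by Krt18 and by Rlbp1, which is on the Müller glia list too. The defining marker Rpe65 was at or below 0.0654 CPM in every library of both groups. Best1 and Krt8 were at 0 in all Jun knockdown libraries and in the first and second controls. Tyr was higher in every Jun knockdown library than in any control. Ttr was lower without overlap, at 0.0654 CPM or below in Jun knockdown libraries, against 6.88, 19.9 and 19.4 CPM in control libraries. Rgr was at 0.340 CPM or below in Jun knockdown libraries, against 0.192, 71.3 and 46.1 CPM in control libraries. The part of these markers in the Moap1 values was not tested.

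The promoter of Moap1 was read from RefSeq (GRCm38.p6), because its neighbour on the other strand starts inside the same window. Tmem251 starts 101 bases from the start of Moap1 and was measured at 323, 83.6 and 337 CPM in Jun knockdown libraries, against 149, 33.0 and 82.2 CPM in control libraries (log2 fold change 1.49, SE 0.75, edgeR adjusted p = 0.350). It thus had the higher mean in Jun knockdown libraries, opposite to Moap1, though its groups overlapped and it did not pass the test. The window from 250 bases before to 50 after the start holds 1 copy of TGACGTCA, the cyclic AMP response element that Jun and ATF dimers can bind, 16 bases before the start, in capitals here.
Moap1 promoter, chr12:102743612-102743911, minus strand: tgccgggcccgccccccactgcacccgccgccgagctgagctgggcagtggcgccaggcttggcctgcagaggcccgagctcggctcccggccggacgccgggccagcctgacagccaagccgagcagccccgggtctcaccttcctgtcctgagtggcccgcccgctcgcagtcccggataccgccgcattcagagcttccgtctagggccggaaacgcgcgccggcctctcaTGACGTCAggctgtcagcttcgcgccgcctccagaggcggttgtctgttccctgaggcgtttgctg

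The same window was searched in the other members for 3 motifs on both strands. These were TGANTCA, a loose form of the AP-1 element that allows any base at N, TGACGTCA, and TGCTGAC. The last is the core of the element that the rod factor NRL and other MAF proteins can bind. Of 12 windows for the 9 members, 2 held a motif, the second being Mcl1 with TGCTGAC 17 bases after its RefSeq start, written on the plus strand in its reverse complement and in capitals here. TGANTCA occurred in 7.81% of 32851 RefSeq promoters of that length, TGACGTCA in 1.79% and TGCTGAC in 4.67%. The promoter at the 5′ end of Bcl2l11, a gene known as a Jun target in rodent neurons, held none of the 3 and is shown for comparison. A match describes letters in a window, not a bound site. The median GC content of the members' windows was 65.8%, against 52.7% for all promoters.
Mcl1 promoter, chr3:95658471-95658770, plus strand: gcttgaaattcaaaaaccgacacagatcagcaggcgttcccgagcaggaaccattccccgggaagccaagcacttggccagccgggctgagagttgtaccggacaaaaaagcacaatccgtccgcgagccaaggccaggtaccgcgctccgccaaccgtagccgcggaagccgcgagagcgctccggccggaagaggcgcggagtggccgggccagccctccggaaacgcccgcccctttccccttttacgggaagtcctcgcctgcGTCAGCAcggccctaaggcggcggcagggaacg
Bcl2l11 promoter, chr2:128125788-128126087, plus strand: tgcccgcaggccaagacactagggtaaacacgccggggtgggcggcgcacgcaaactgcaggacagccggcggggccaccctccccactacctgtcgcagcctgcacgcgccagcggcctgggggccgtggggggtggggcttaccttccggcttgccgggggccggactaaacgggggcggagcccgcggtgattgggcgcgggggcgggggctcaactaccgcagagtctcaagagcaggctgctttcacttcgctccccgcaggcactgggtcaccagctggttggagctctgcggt

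Levels of different genes were set side by side only per base of annotated transcript length, on the scale like TPM. In control libraries the order was Moap1 (76.8 ± 20.1), Bax (56.3 ± 24.0), Bcl2l1 (10.96 ± 9.20) and Mcl1 (7.76 ± 4.33), then Apaf1, Bcl2l11, Bak1, Casp9 and Bcl2, all between 0.0379 and 1.21 (mean ± SD, n = 3). Of the neighbours in that order, only Bax and Bcl2l1 did not overlap in their libraries. In Jun knockdown libraries the order was Mcl1 (21.7 ± 10.6), Bax (13.2 ± 15.5), Casp9 (12.3 ± 21.3), Apaf1 (11.4 ± 19.1) and Bcl2l11 (5.19 ± 8.57), then Bcl2l1 (1.02 ± 0.822), Bcl2, Moap1 and Bak1. There every pair of neighbours overlapped, so that order is not resolved beyond the spread.

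Per length, the summed survival genes (Bcl2, Bcl2l1 and Mcl1) over the summed pore formers (Bax and Bak1) gave ratios of 0.348, 5.15 and 9.28 in Jun knockdown libraries, against 0.511, 0.527 and 0.111 in control libraries. The groups overlapped, since the first Jun knockdown library lay inside the control range and the others were at least 5.15. Mcl1 supplied 87.1%, 97.6% and 93.0% of the survival sum in Jun knockdown libraries, against 66.1%, 31.7% and 31.6% in control libraries. That share was higher in every Jun knockdown library than in any control. No p is given for these sums, which join members chosen with earlier results of these data known.

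Beyond the members, 85 further genes of the pathway were listed in 8 groups by role, and 51 of them were tested. Of the 51, 1 passed edgeR's test as lower, Vdac1, and 0 as higher, where 1.35% of all tested genes passed as lower and 0.32% as higher. At an unadjusted p of 0.05 it was 10 of the 51, and 16.8% of all tested genes. The median log2 fold change of the 51 was -1.05, with 33 below 0, against -0.12 for all tested genes.

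The mitochondrial membrane genes held the only call, with 1 of 10 tested genes passing as lower and a median log2 fold change of -1.30. Vdac1 encodes the main channel of the outer membrane, which exchanges metabolites and binds BCL2 family proteins. It was measured at 44.6, 10.8 and 31.8 CPM in Jun knockdown libraries, against 465, 406 and 219 CPM in control libraries. The groups did not overlap, with a log2 fold change of -3.64 (SE 0.70, edgeR adjusted p = 0.0431). The call ended without any 1 of the 6 libraries (adjusted p from 0.0669 to 0.161), under each other scaling (0.0507 to 0.0590), with limma-voom (0.0852), with thinned counts (0.0557) and with the replicate number as a block (0.0979). It was kept with no filter (0.000132), with DESeq2 (0.00837) and with limma-trend (0.0271 and 0.0247), and over all 16 alternatives the log2 fold change stayed between -4.13 and -3.19. Chchd2, an intermembrane protein that restrains BAX in human cells, averaged 211 ± 24.1 CPM in Jun knockdown libraries and 665 ± 40.1 CPM in control libraries (SD, n = 3 each, log2 fold change -1.65, SE 0.35, edgeR adjusted p = 0.055), and passed with no filter, limma-voom and limma-trend (adjusted p from 0.0252 to 0.0449).

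Among the other BH3-only genes, 0 of 5 tested passed, with a median log2 fold change of -1.04. The 2 with the smallest p, Bnip3 and Bnip3l, encode outer-membrane proteins best known for mitophagy. Bnip3 averaged 88.3 ± 16.0 CPM in Jun knockdown libraries and 357 ± 39.5 CPM in control libraries (SD, n = 3 each, log2 fold change -2.01, SE 0.46, edgeR adjusted p = 0.063). Bnip3l averaged 299 ± 22.7 CPM in Jun knockdown libraries and 615 ± 68.2 CPM in control libraries, with a log2 fold change of -1.04 (SE 0.34, edgeR adjusted p = 0.175). Neither gene's groups overlapped, and with limma-trend Bnip3 passed at both pseudocounts (adjusted p = 0.0274 and 0.0288) and Bnip3l at the lower one (0.0473).

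The PNMA family genes and partners of MOAP1 had the lowest median of the 8 groups, -2.41 over 7 tested genes, and 0 of them passed. That median is the value of Ccdc8, which averaged 0.272 CPM in Jun knockdown libraries and 1.47 CPM in control libraries, with overlapping groups. Of the 7, 5 were below 0 and 2 above it, Stk4 at 0.53 and Pnmal2 at 1.11. Rassf1 encodes RASSF1A, which releases MOAP1 for BAX binding in human cells. Only the gene as a whole was examined, so its values are not those of the RASSF1A form alone. Rassf1 was measured at 0.613, 3.05 and 0.720 CPM in Jun knockdown libraries, against 13.7, 159 and 122 CPM in control libraries. All Jun knockdown libraries were below all controls (log2 fold change -6.06, SE 1.44, edgeR adjusted p = 0.069), and the gene passed with DESeq2 (adjusted p = 0.000218) and with no filter (0.00282). Stk3, the kinase MST2 of the same RASSF1 pathway, was measured at 7.83, 14.6 and 9.36 CPM in Jun knockdown libraries, against 124, 55.7 and 140 CPM in control libraries, again without overlap (log2 fold change -3.33, SE 0.92, edgeR adjusted p = 0.104), and passed with DESeq2 (adjusted p = 0.00776) and with limma-trend (0.0495 and 0.0490).

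Of 4 tested genes for Mcl1 protein turnover, 0 passed, and their median log2 fold change was 1.46, above 0 as it was for Mcl1. Huwe1, a ubiquitin ligase for MCL1, was measured at 181, 569 and 20.1 CPM in Jun knockdown libraries, against 36.7, 45.7 and 16.6 CPM in control libraries, with overlapping groups (log2 fold change 2.96, SE 1.07, edgeR adjusted p = 0.208, and 0.0406 with no filter). Fbxw7, part of another ligase for MCL1, had a log2 fold change of 2.09 (SE 1.22, edgeR adjusted p = 0.417).

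Caspases and their inhibitors had a median log2 fold change of 0.04, and 0 of 13 tested genes passed. Xiap, the inhibitor that binds caspase-9, averaged 461 ± 357 CPM in Jun knockdown libraries and 133 ± 105 CPM in control libraries (SD, n = 3 each, log2 fold change 1.80, SE 0.79, edgeR adjusted p = 0.292), and Casp2 had a log2 fold change of -3.20 (edgeR adjusted p = 0.362). Among 4 tested death receptor genes 0 passed, with Traf2 at -3.005 (edgeR adjusted p = 0.305) and Tnfrsf10b at 1.60 (edgeR adjusted p = 0.552). Among 6 tested p53 and FOXO regulators of the family 0 passed, with a median of -1.42, Ddit3 at -1.49 (edgeR adjusted p = 0.244) and Trp53 at -2.56 (edgeR adjusted p = 0.335), all as log2 fold changes.

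Only 2 of the 10 other survival and pore-forming family genes were tested. Bcl2l2, which encodes the survival protein BCL-W, had a log2 fold change of -1.36 (edgeR adjusted p = 0.747), and Bcl2l13 one of -0.48 (edgeR adjusted p = 0.861), with overlapping groups for both. Bcl2l13 turned to 0.0676 with library totals as the scaling. The leukocyte-expressed Bcl2a1 copies, which are near-identical and so may share reads, were at 0 in all Jun knockdown libraries, and Bcl2a1d reached 19.6 CPM in the first control and Bcl2a1b 11.7 CPM in the third.

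**Figure D5:**
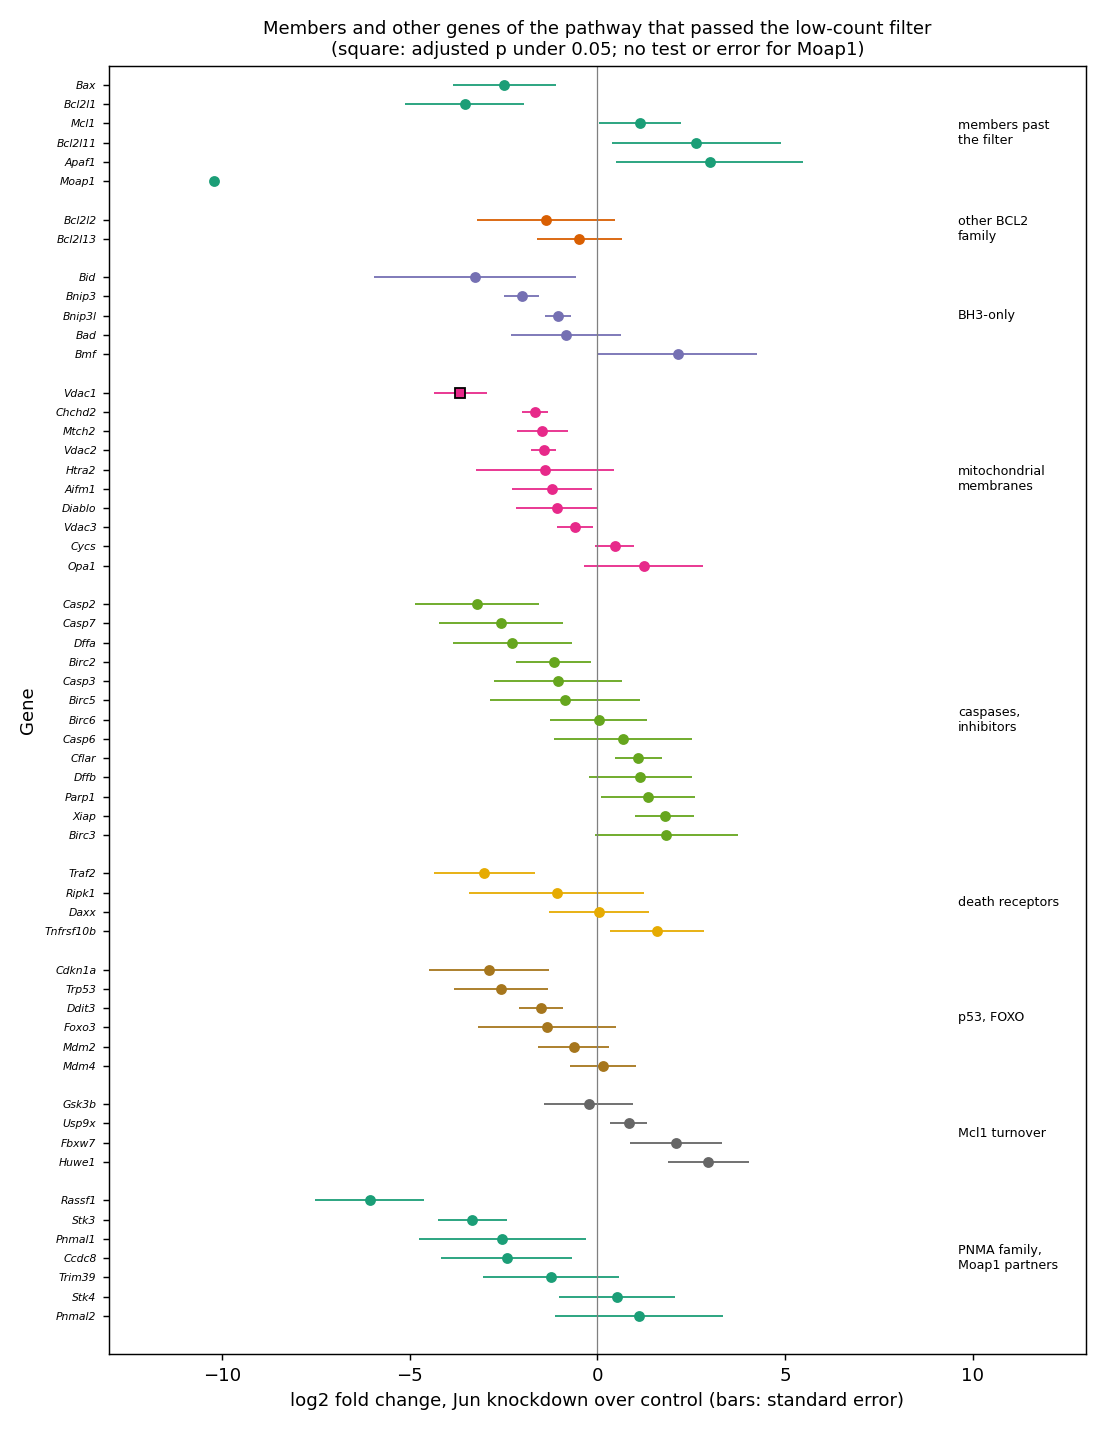
Log2 fold change of Jun knockdown over control, with its standard error as a bar (none for Moap1), for the 6 members and the 51 other pathway genes that passed the low-count filter, grouped by role. Vdac1, drawn as a square, is the only one past the edgeR threshold, and Moap1, with no test, lies lowest at -10.20.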

How the data were processed

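The authors deposited estimated counts per gene and per transcript and a normalised gene table named as CPM. Tools listed per the submitters' processing notes, without their roles, are kallisto 0.44.0, edgeR 3.28.1 and Trimmomatic 0.39. A genome build was not given in the sources used here. Columns of the deposited table named as CPM add up to more than true CPM can, so it was treated as a signal on the authors' scale and used only for an alternative. Of 52143 deposited gene identifiers, 51250 are in GENCODE vM21 and 98.2% of those have the same coordinates there, so GRCm38 is given. Gene counts are not sums of the transcript counts, so the 2 were not mixed. No sample column was left out (0 columns).

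Here the estimated counts were rounded, low genes were removed by filterByExpr, and TMM factors were applied. The test was the quasi-likelihood F test of edgeR 4.0.16 (R 4.3.3) with group as its only term, adjusted by Benjamini-Hochberg over 12815 genes, at a threshold of 0.05. For 20706 transcripts the test was the same. Each SE is the size of the log2 change over the root of F. Called, passed, fell and rose mean past that threshold. Exact permutation tests of 3 against 3 libraries cannot go below 0.1. The procedure was tested on simulated data. The members and gene lists were chosen with earlier results of these data known. Named were all members and Jun, and in each pathway list the genes past the threshold and the 2 with the smallest p. Also named were genes that overlap a member with a value of note or adjoin Moap1, the 3 genes most correlated with Moap1 among those with 5 CPM or more in the higher group, and transcripts with at least 10% of a gene's counts; the Bcl2a1 copies and the single marker genes were chosen after their values were seen. Alternatives were 3 other scalings, no filter, DESeq2 1.42.0, limma-voom and limma-trend (limma 3.58.1, log2 of the deposited signal plus 0.5 or 2), counts thinned to the smallest total, a replicate block, a threshold of 0.1 and leaving out each library. The sum of Moap1 and Gm20604 was added after seeing the data.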

Additional observations from a re-analysis of the deposited data

How the results depend on the processing

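The count of genes past the threshold was 214. It was 644 at an adjusted p of 0.1, 737 with no filter, 442 with limma-voom, 1955 with DESeq2, and with limma-trend 615 at a pseudocount of 0.5 and 553 at 2. Without 1 library each it ran from 36 to 110, lowest without the third control. With the replicate number as a block it was 97. Replicate numbers were not used as pairs: same-numbered libraries correlated at 0.0034, 0.035 and -0.0097 in their deviations. The cause of these shifts was not tested. The count of members chosen by name that passed was 0 in every alternative run except DESeq2, where it was 1, and ran from 0 to 0 with a library left out.

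The direction turned for 2 members: Bcl2l11 was -0.999 without the second Jun knockdown library, with a range of -0.999 to 5.84 over the libraries left out, and Apaf1 was -2.81 without the first, with a range of -2.81 to 7.85. Bcl2l13 was 0.0676 with library totals and ran from -1.05 to 0.0888 with a library left out. Bax, Bcl2l1 and Mcl1 kept their directions in all 16 alternatives, with log2 fold changes from -4.23 to -2.02, from -4.61 to -2.72 and from 0.72 to 1.66. Moap1 stayed below 0, from -14.59 to -3.05, the end nearest 0 being the sum with Gm20604. The scalings moved the median log2 fold change of all genes by 0.15, 0.39 and 0.49, toward higher values in Jun knockdown libraries, with 125 lower and 38 higher calls for median of ratios, 89 lower and 55 higher for upper quartile and 79 lower and 68 higher for library totals, against 173 lower and 41 higher. Bak1, Bcl2, Casp9 and the Jun knockdown values of Moap1 each rest on few counts in most libraries, and the part of depth in this was not tested.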
